A study of Rattus norvegicus with 9 samples.

Results

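Sprr1a, Tspan8, Vcam1, Cav1, Cav2, Myzap, Tc2n and Tcim were examined as genes proposed to be several-fold higher in heregulin-treated ureteric buds than in buds grown in conditioned medium. These 8 genes, of 10411 with a symbol on the array, were carried by 9 of the 15866 probe sets that are not controls. For 7 genes a probe set read several-fold higher in HRG, which only repeats the choice of the genes from these same arrays. Cav2 and the second of the 2 Cav1 probe sets had signals too low to measure a change. Both are described with the others below. The genes were chosen from the difference between the HRG and BSN arrays, so the values of that contrast are given for them as a description with no test. The choice has no numerical threshold.

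The samples were ureteric buds, the epithelial outgrowth that branches into the collecting duct system of the kidney, isolated from Sprague-Dawley rats at embryonic day 13 and cultured for 4 days in a gel made in equal parts (50% each) of Matrigel, of the growth factor reduced kind, and type 1 collagen. All media held FGF1 at 250 ng/ml and GDNF at 125 ng/ml. The additions were BSN-CM, which a metanephric mesenchymal cell line had conditioned (BSN group), human recombinant heregulin alpha at 500 ng/ml (HRG group), or pleiotrophin purified from that conditioned medium at about 3 µg/ml (PTN group). Each sample pooled the RNA of 3 buds, and each group had 3 samples, which the series design calls biological replicates. No group received FGF1 and GDNF alone, so which of 2 media moved a gene cannot be told apart. The series title places PTN among the branching cultures and the PTN sample descriptions call them non-branching, and the groups are named here by medium only.

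Heregulin is a ligand of the ErbB receptor tyrosine kinases, which signal in epithelia through the ERK and PI3 kinase pathways. The members act at different places in an epithelial cell. Sprr1a is a small proline-rich protein that transglutaminases cross-link into the cornified envelope of squamous cells. Tspan8 is a tetraspanin, a membrane protein that gathers integrins and other partners into microdomains. Vcam1 is an immunoglobulin-family adhesion molecule that binds leukocyte integrins, and in endothelium it is a well-known target of NF-kappaB. Cav1 is the main coat protein of caveolae, the flask-shaped pits of the plasma membrane, and Cav2 is its partner. Myzap is a plaque protein of adherens-type junctions that was described in the heart. Tc2n carries tandem C2 domains, a fold that often binds membranes, and Tcim is a small protein reported to favour beta-catenin signalling by binding Chibby. By these roles, membrane and junction proteins made up 5 of the 8 genes, and no single role covered them all.

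The array signals were in the range of an epithelial sample. Epcam, the epithelial adhesion molecule, had a mean signal of 63332 ± 2144 on the BSN arrays (SD, n = 3, as for every ± after a signal), 61147 ± 7133 on the HRG arrays and 55695 ± 3073 on the PTN arrays. The summed signal of the 8 measured ureteric epithelial markers ran from 145875 to 153011 in BSN, 154516 to 171366 in HRG and 112712 to 133402 in PTN. Other cells that could carry Cav1, Vcam1 or Myzap were looked for by their markers. Of 7 measured endothelial markers 2 were kept by the filter on low signals, and the others were not tested. Neither of the 2 rose in HRG against BSN by limma's fit, and Kdr fell (adjusted p = 0.00792). The BSN and HRG means of Kdr (742 and 329) were under the mean 40th percentile of their arrays (750 and 691), so its fall has no size. Pecam1 (61.6 to 84.2, group means) and Vwf (233 to 239) stayed under the 40th percentile of every array. The summed signal of all 7 endothelial markers was 2848 to 3384 in BSN, 2700.0 to 3552 in HRG and 2677 to 3215 in PTN. Of 8 measured mesenchymal markers 4 were kept. The sum of all 8 was 4703 to 4992 in BSN, 3167 to 4446 in HRG and 4485 to 4684 in PTN, and Vim fell in HRG (adjusted p = 0.0456). Leukocyte and smooth muscle markers had 3 of 8 and 1 of 5 kept. The sums of all 8 and all 5 were 3969 to 4896 and 1489 to 1766 in HRG. They were 4603 to 4884 and 1700.3 to 2303 in BSN, and 3640 to 4863 and 1388 to 1916 in PTN. The 3'/5' ratio of the actin control, a sign of RNA quality, fell in the order BSN (33.2 ± 4.91), HRG (25.2 ± 5.86) and PTN (16.6 ± 1.4). That of the GAPDH control ran in another order, at 4.57 ± 1.11 with BSN, 2.92 ± 0.80 with HRG and 5.14 ± 1.98 with PTN. The part of either in the results was not tested. In these pooled samples, fewer cells of a type and less RNA per cell cannot be told apart.

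The upstream sequences of 3 members are shown because they hold words looked for around these genes: AP-1 words in Sprr1a, kappaB words in Vcam1, and an AP-1 word in Cav2. Cav2 is the gene whose signals were too low to measure a change. They come from RefSeq's GRCr8 assembly, 5′ to 3′ on the gene's strand, and end 1 base before the annotated start. Windows were held for 6 of the 8 members, and Tc2n and Tcim had none. Capitals mark TGANTCA (AP-1) in Sprr1a and Cav2, GGGNTTNCC (kappaB) in Vcam1, and TATAAA in Sprr1a and Vcam1.
Sprr1a, chr2:180752626-180752875, minus strand: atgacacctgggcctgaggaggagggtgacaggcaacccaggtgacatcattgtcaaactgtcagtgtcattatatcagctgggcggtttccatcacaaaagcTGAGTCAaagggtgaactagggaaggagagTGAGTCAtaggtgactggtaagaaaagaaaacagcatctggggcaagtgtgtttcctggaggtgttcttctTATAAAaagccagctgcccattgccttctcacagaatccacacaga
Vcam1, chr2:206742784-206743033, minus strand: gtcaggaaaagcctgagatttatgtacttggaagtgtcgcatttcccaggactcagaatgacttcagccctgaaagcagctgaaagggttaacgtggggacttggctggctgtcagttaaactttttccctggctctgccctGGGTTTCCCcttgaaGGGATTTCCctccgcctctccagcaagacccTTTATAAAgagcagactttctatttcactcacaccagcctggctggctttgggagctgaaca
Cav2, chr4:46582431-46582680, plus strand: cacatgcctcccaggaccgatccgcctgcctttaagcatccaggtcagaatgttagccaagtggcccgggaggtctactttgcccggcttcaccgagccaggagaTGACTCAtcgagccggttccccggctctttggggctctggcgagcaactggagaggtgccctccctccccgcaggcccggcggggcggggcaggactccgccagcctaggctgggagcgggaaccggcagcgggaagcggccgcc

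Both strands of each window of 250 bases were searched, and the letters of the kappaB word were chosen after the sequences had been read. The Sprr1a window held 2 AP-1 words, which begin 147 and 117 bases before the start, and the Cav2 window held 1, at 145 bases. The same word was found in 6.34% of the 33469 rat windows of that length. The Vcam1 window held the kappaB word at 108 and 93 bases before the start, and 4.04% of all windows held it. TATAAA, which reads in both directions with an overlap in Vcam1, was in 12.9% of all windows. It was also on the opposite strand in 1 Cav1 window, at 184 bases. Searched too were GGGCGG (GC box), in 30.5% of all windows, and GGAATG (TEAD), in 12.1%. The GC box was in the windows of Sprr1a, Cav2, Myzap and 1 start of Cav1, and the TEAD word in no member window. The windows of Tspan8, Myzap and both annotated starts of Cav1 held neither the AP-1 nor the kappaB word in these letters. No 1 of these words was in the windows of all members, and a match is only a match of letters.

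Across the 9 probe sets, 7 passed the filter on low signals (3 or more arrays over that array's 40th percentile), 1 for each gene except Cav2. On all 7 every HRG array lay above all 6 other arrays, a pattern found on 9.01% of the 10106 kept probe sets; since the genes were chosen for it in part, nothing is read from that count. Over all kept probe sets 6.92% were called higher in HRG than in BSN. Against PTN, whose arrays played no part in the choice although the HRG arrays did, all 7 were higher in HRG by limma's adjusted p under 0.05, where 14.1% of kept probe sets were called higher and 25.8% in either direction. High HRG signals were part of the choice, so the members' values for HRG against PTN may lean towards HRG. Their adjusted p values given below may therefore be too small, and nothing is read from the count of 7. The BSN arrays took part in the choice as well, so the members' values for PTN against BSN may lean towards PTN above BSN. The plot of signals by array shows the separation and the 2 dim probe sets.

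**Figure D1:**
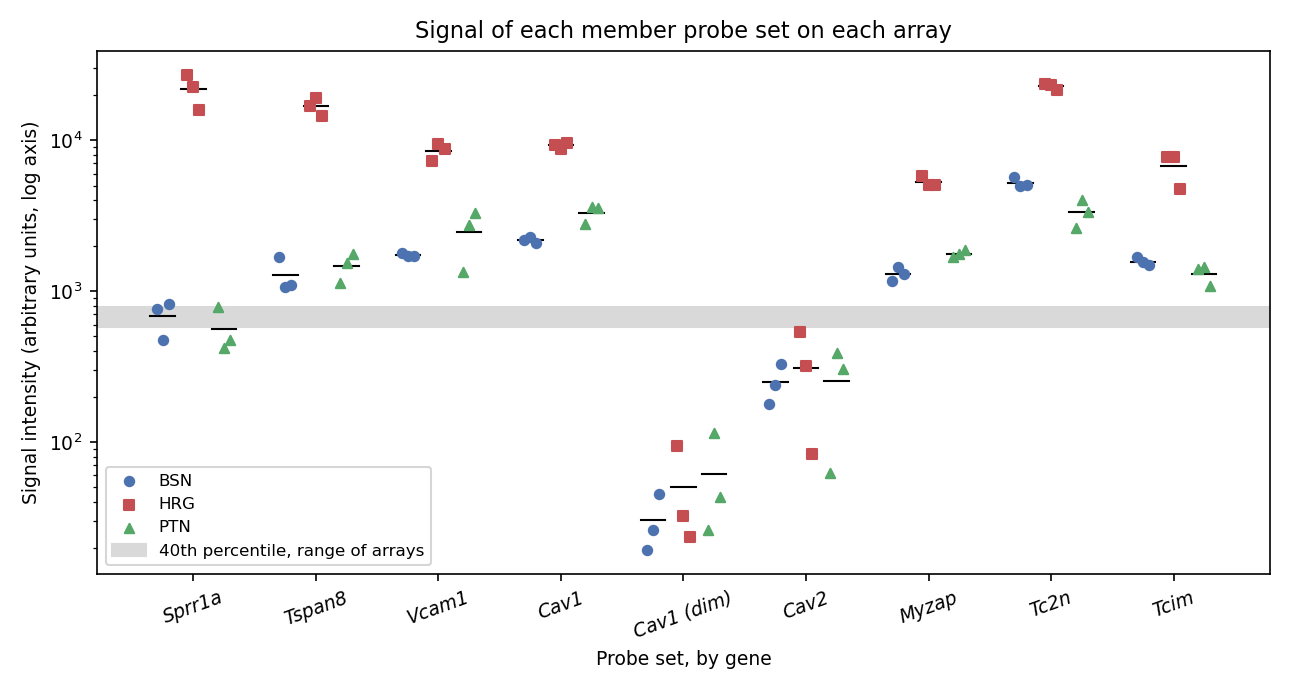
Signal intensity (log axis) of the 9 member probe sets on each of 9 arrays, with 3 arrays per medium (circles BSN, squares HRG, triangles PTN), a black line at each group mean and a grey band for the range of the arrays' 40th percentiles, 580.1 to 788.2. The HRG squares stand above all other points for 7 probe sets, and the groups overlap for Cav2 and the dim Cav1 probe set.

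Sprr1a was bright on the HRG arrays and near or below the 40th percentile on all others. Its signals were 764.9, 473.6 and 825.6 in BSN, 27178.1, 22411.2 and 15845.3 in HRG, and 788.2, 417.3 and 476.6 in PTN. The lowest HRG array was 19.2 times the highest BSN array and 20.1 times the highest PTN array. No fold or log2 change is given, because the BSN and PTN means lay below the mean 40th percentile of their arrays and a fold would depend on how low signals are treated. The HRG arrays were higher than the PTN arrays by limma's test (adjusted p = 7.02e-08). PTN and BSN overlapped and their difference did not pass (adjusted p = 0.443). The HRG arrays themselves spread 1.72-fold, with HRG replicate 3 the lowest.

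Other genes of the squamous programme were mostly not raised with Sprr1a. Of 15 genes of a squamous and cornified envelope list on the array, 6 were kept, and between HRG and BSN 1 rose, 1 fell and 4 did not pass, with a median log2 change of 0.06 against -0.04 over all kept probe sets. Evpl, encoding envoplakin, a plakin of the cornified envelope, rose from 512 ± 68.6 to 1362 ± 81.3 (adjusted p = 0.00487). Sfn, encoding 14-3-3 sigma, a marker of stratified epithelium, fell from 1432 ± 234 to 619 ± 28.8 (adjusted p = 0.00219). The BSN mean of Evpl and the HRG mean of Sfn were under the mean 40th percentile of their arrays (750 and 691). Evpl was above it in HRG and Sfn in BSN, so the rise and the fall have no size. The HRG arrays of Evpl and the BSN arrays of Sfn met the filter on low signals by themselves, so the filter favoured both calls. Krt5, a basal keratin, was at 853 ± 115 in BSN and 940 ± 46.7 in HRG (adjusted p = 0.727), and Klf4, a transcription factor of the epidermal barrier, at 1714 ± 115 and 1763 ± 94.8 (adjusted p = 0.911). The calls for Evpl and Sfn were absent when only probe sets above the 60th percentile were tested, where 1 gene of the list was tested. Between HRG and PTN 1 of the 6 was higher, 0 were lower and 5 did not pass. By limma with the replicate number as a block, Evpl was higher in HRG than in PTN (adjusted p = 0.00014). Sfn was not called there (log2 change 0.24, adjusted p = 0.465), so its fall was seen against BSN only.

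Of a list of urothelial genes, which mark the lining of the lower urinary tract, 5 were kept. Between HRG and BSN 2 rose: Pparg, a nuclear receptor of urothelial differentiation, from 560.1 ± 188 to 1674 ± 47.7 (adjusted p = 0.00208), and Klf5, a zinc finger factor, 2-fold from 1758 ± 558 to 3436 ± 605 (adjusted p = 0.0078). None of the 5 fell by limma's adjusted p or at an unadjusted p under 0.05. Between HRG and PTN 4 of the 5 were higher: Krt7, a simple epithelial keratin of urothelium, 4.24-fold (adjusted p = 1.17e-05), Klf5 2.58-fold (adjusted p = 0.000644), Pparg (589 ± 211 in PTN, adjusted p = 0.00176), and Elf3, an epithelial ETS factor, 1.42-fold (adjusted p = 0.0183). Pparg and Elf3 are named here after their values were seen, and the Elf3 call was lost without HRG replicate 1 (0.0786), HRG replicate 2 (0.0623) or PTN replicate 3 (0.0612) and with each array centred on its median (0.0511). For Pparg the BSN and PTN means were under the mean 40th percentile of their arrays (750 and 632), so its differences have no size. Its HRG arrays met the filter on low signals by themselves, so the filter favoured its calls as higher in HRG. The counts of 2 and 4 include Pparg. Krt7 was at 12260 ± 1035 in BSN and 10263 ± 864 in HRG (adjusted p = 0.449), so its pattern was not that of Sprr1a. Gata3, another urothelial factor, was at 1187 ± 76.6 in BSN and 978 ± 239 in HRG (adjusted p = 0.51).

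Of the AP-1 subunits, whose word stands in the Sprr1a window printed above, 3 were kept. Atf3, a stress-induced relative of the Jun proteins, was at 1294 ± 232 in BSN and 1988 ± 348 in HRG (adjusted p = 0.0475), a call lost in 10 of 18 alternatives, 6 of them with 1 array left out (up to 0.185). It was at 945 ± 161 in PTN, 2.08-fold lower than in HRG (adjusted p = 0.00152). Jun was at 8118 ± 791 with BSN, 9557 ± 1094 with HRG and 6731 ± 559 with PTN (adjusted p = 0.294 for HRG against BSN and 0.0162 for HRG against PTN). The second Jun call was lost without HRG replicate 2 (0.0789) and with median centring (0.119).

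Tspan8 had signals of 1678.6, 1070.3 and 1091.8 in BSN, 16914, 19118 and 14445.6 in HRG, and 1131.5, 1539.9 and 1747.9 in PTN. The HRG mean was 13.2-fold the BSN mean on the log2 scale of signal plus 16, and 11.4-fold the PTN mean (log2 change 3.51 ± 0.20 SE, adjusted p = 1.86e-07). BSN and PTN overlapped (adjusted p = 0.491).

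Other tetraspanins moved by far less and in both directions. Of 16 kept family members 4 rose and 2 fell between HRG and BSN, and 10 did not pass, with a median log2 change of 0.08. Cd82 rose 2.11-fold, from 1429 ± 465 to 2940 ± 411 (adjusted p = 0.00612). Tspan1, a tetraspanin of secretory epithelia, rose 1.46-fold from 7224 ± 649 to 10519 ± 926 (adjusted p = 0.0111). The rises of Tspan6 and Tspan15 are named after their values were seen. Tspan9 fell from 3653 ± 487 to 2370 ± 242 (adjusted p = 0.0104) and Tspan5 from 2141 ± 164 to 1519 ± 113 (adjusted p = 0.023). Without BSN replicate 2 or without HRG replicate 3 the counts were 1 higher and 0 lower, and without BSN replicate 3 they were 2 higher and 1 lower. Only the Cd82 call among these 6 held in all 18 alternatives. Cd9, Cd63 and Cd81, tetraspanins found on most cells, were among those that did not pass. Between HRG and PTN 2 of the 16 were higher, 2 lower (0 without HRG replicate 3) and 12 did not pass. The 2 lower were Tspan9 and Tspan5, and the Tspan5 call was lost in 13 of 18 alternatives, 9 of them with 1 array left out. Tspan1 was higher in HRG than in PTN in all 18 alternatives (log2 change 0.92 to 1.08). Cd82 was not called there (log2 change 0.11, adjusted p = 0.731 by limma with the replicate number as a block).

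Vcam1 had signals of 1784.5, 1710.6 and 1702.6 in BSN, 7250.5, 9404.1 and 8704 in HRG, and 1340.5, 2742.4 and 3279 in PTN. The HRG mean was 4.82-fold the BSN mean and 3.64-fold the PTN mean (log2 change 1.87 ± 0.26 SE for HRG minus PTN, adjusted p = 0.00018). BSN was the tightest group of any member, with a coefficient of variation of 2.61%, and PTN the widest among the 7 kept probe sets, with 40.8%. PTN replicate 1 lay below all BSN arrays and the other PTN arrays above them. PTN minus BSN was 0.40 ± 0.26 SE and did not pass (adjusted p = 0.275), and without PTN replicate 1 it did (0.79 ± 0.14 SE, adjusted p = 0.00198).

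The other genes of the NF-kappaB and leukocyte adhesion list went the opposite way from Vcam1 or did not pass. Of 16 kept genes 7 fell in HRG against BSN and 0 rose by limma's adjusted p (8 lower and 0 higher at an unadjusted p under 0.05), with a median log2 change of -0.58. Over all kept probe sets 8.86% were called lower, and 20.9% had every HRG array below every BSN array. Nfkb1, encoding the p105 precursor of an NF-kappaB subunit, fell 1.74-fold from 5501 ± 265 to 3150 ± 196 (adjusted p = 0.00138), and Ier3, an early response gene, fell 1.87-fold from 2973 ± 284 to 1576 ± 67.8 (adjusted p = 0.00147). The other 5 are named after their values were seen. Birc3, an inhibitor of apoptosis, fell from 2146 ± 244 to 1168 ± 79.7. Nfkbia, the inhibitor that NF-kappaB itself induces, fell from 809 ± 59.2 to 178 ± 46.1. Icam1, an adhesion molecule like Vcam1, fell from 1251 ± 241 to 351 ± 292, and Icam2 and Nfkb2 fell too. For Nfkbia, Icam1, Icam2 and Nfkb2 the HRG mean was below the 40th percentile, so these 4 passed the filter through other groups and their falls have no size, and Nfkb1, Ier3 and Birc3 were above it in both groups. The count of lower genes was 4 without BSN replicate 2 or BSN replicate 3, 5 with any 1 of BSN replicate 1 and HRG replicates 2 and 3 left out, and 3 of 8 tested, with a median log2 change of -0.30, with only probe sets above the 60th percentile. The calls for Nfkb1, Ier3 and Birc3 held in all 18 alternatives.

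For 6 of these 7 genes the PTN mean was nearer to the HRG mean than to the BSN mean, and for Icam2 and for Vcam1 it was nearer to BSN. Between PTN and BSN, which share the BSN arrays with the comparison above, 7 list genes were lower and 0 higher (8 and 0 at an unadjusted p under 0.05), where 13.4% of kept probe sets were called lower. Nfkb1 was at 3471 ± 465 in PTN, Birc3 at 991 ± 132, Icam1 at 208 ± 175 and Nfkbia at 198 ± 144. Between HRG and PTN 1 of the 16 passed: Ccl20, an epithelial chemokine, was at 4192 ± 1192 in HRG and 1363 ± 181 in PTN (2.99-fold, adjusted p = 7.23e-05) and at 3681 ± 329 in BSN. None was lower by limma's adjusted p, and 2 were at an unadjusted p under 0.05; with median centring or quantile normalization 2 were called lower.

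**Figure D2:**
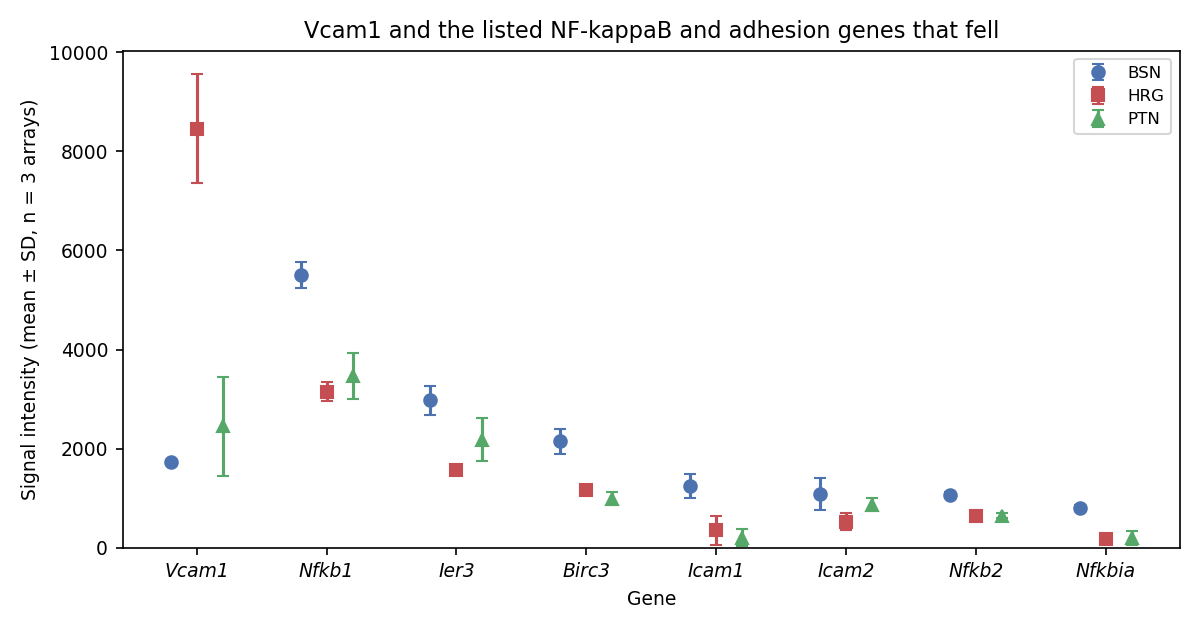
Mean signal ± SD of 3 arrays for Vcam1 and the 7 NF-kappaB and adhesion genes that fell in HRG against BSN, by medium (circles BSN, squares HRG, triangles PTN). Vcam1 is highest in HRG at 8453 ± 1099, and the other 7 genes are highest in BSN.

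The caveolin genes gave unequal readings. The bright Cav1 probe set had signals of 2185.1, 2263.7 and 2068.7 in BSN, 9342.4, 8740.3 and 9560.8 in HRG, and 2765.5, 3577.8 and 3550.4 in PTN. These groups did not overlap in any pair, in the order HRG, PTN, BSN. HRG was 4.22-fold BSN and 2.8-fold PTN (log2 change 1.49 ± 0.14 SE for HRG minus PTN, adjusted p = 7.89e-06). PTN was 1.5-fold above BSN (log2 change 0.59 ± 0.14 SE, adjusted p = 0.00894), where 9.15% of kept probe sets were called higher, and this call held in all 18 alternatives. The second Cav1 probe set read 19.3 to 45.2 in BSN, 23.4 to 94 in HRG and 26.2 to 113.9 in PTN, under the 40th percentile on every array, so the rise rests on 1 of the 2 probe sets.

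Cav2, which lies next to Cav1 in the rat genome and whose protein joins Cav1 in caveolae, showed no separation of the media. Its signals were 178.3, 238.4 and 329.6 in BSN, 532.3, 316.9 and 83.6 in HRG, and 62.3, 390.3 and 304.6 in PTN, again under the 40th percentile on all 9 arrays. HRG replicate 1 was 6.37 times HRG replicate 3, and the HRG SD of 224 was larger than the gaps between the group means of 249, 311 and 252. Without a filter, HRG minus PTN was 0.28 ± 0.69 SE on the log2 scale (adjusted p = 0.848). At signals this low a change of Cav2 was not measurable, and these values do not show that Cav2 was unchanged.

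Of 7 kept genes of a caveola and lipid raft list 1 rose between HRG and BSN, 0 fell (0 also at an unadjusted p under 0.05) and 6 did not pass, with a median log2 change of 0.06. The gene that rose was Pacsin2, a membrane-bending protein of caveolar necks, from 7934 ± 1470 to 14163 ± 2553 (1.79-fold, adjusted p = 0.00441). Cavin3, a caveolar coat subunit, was at 858 ± 60.9 in BSN and 879 ± 92.8 in HRG (adjusted p = 0.956), and the raft proteins Flot1 and Flot2 did not pass (0.669 and 0.716). Against PTN the gene that passed was Ehd4, a membrane-remodelling ATPase, at 4254 ± 242 in HRG and 2939 ± 281 in PTN (adjusted p = 0.0107). With the replicate number as a block 4 of the 7 were higher in HRG than in PTN: Ehd4 (adjusted p = 0.0126), Flot2 (0.0204), Pacsin2 (0.0419) and Cavin3 (0.0443), the last 3 named after their values were seen.

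Myzap had signals of 1162.6, 1435.3 and 1292.5 in BSN, 5770.2, 5045 and 5005.6 in HRG, and 1670, 1760.2 and 1881.4 in PTN. As with Cav1, the groups did not overlap in any pair and ran in the order HRG, PTN, BSN. HRG was 4.04-fold BSN and 2.96-fold PTN (log2 change 1.56 ± 0.13 SE for HRG minus PTN, adjusted p = 4.82e-06). PTN was 1.36-fold above BSN (adjusted p = 0.0312). That call was lost without BSN replicate 1 (0.116), BSN replicate 3 (0.0835), PTN replicate 2 (0.071) or PTN replicate 3 (0.0962), and when only the 2 groups compared were fitted (0.0716).

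Junction plaque genes and SRF targets, a list made around Myzap, had 12 kept members. Between HRG and BSN 3 rose, 0 fell (2 at an unadjusted p under 0.05) and 9 did not pass. The 3 were the desmosome genes Dsc2, 1.64-fold from 5108 ± 785 to 8351 ± 604 (adjusted p = 0.0118), Dsp, 1.41-fold from 6469 ± 525 to 9163 ± 814 (adjusted p = 0.0364), and Pkp2, named after its value was seen. The count was 1 without any 1 of BSN replicates 1, 2 and 3 or HRG replicates 2 and 3. The actin-linked genes of the list stayed outside this count: Acta2 was at 1080 ± 147 in BSN and 725 ± 175 in HRG (adjusted p = 0.12). Against PTN 4 of 12 were higher, led by Dsc2 at 2.35-fold (adjusted p = 0.000188) and Pkp2 at 1.73-fold (adjusted p = 0.0098, or 0.0557 without HRG replicate 3). The other 2 were Dsp (adjusted p = 0.0348, lost in 6 alternatives) and Jup (0.0365, lost in 10). The count was 1 without HRG replicate 3 and 2 without HRG replicate 2, PTN replicate 1 or PTN replicate 2, with median centring, with the 60th percentile filter and with only the 2 groups compared.

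Tc2n had signals of 5678.4, 4934.2 and 5031.3 in BSN, 23596.7, 23224.4 and 21609.4 in HRG, and 2629, 3992.7 and 3316.9 in PTN. HRG was 4.37-fold BSN and 6.95-fold PTN (log2 change 2.80 ± 0.15 SE for HRG minus PTN, adjusted p = 1.28e-07). Tc2n was the member that was lower in PTN than in BSN, 1.59-fold (log2 change -0.67 ± 0.15 SE, adjusted p = 0.00841). With each array centred on its median, which moves the median PTN minus BSN change of all kept probe sets up by 0.21 on the log2 scale, that difference was -0.46 (adjusted p = 0.0938). C2 domain vesicle proteins had 11 kept members, of which 3 rose and 1 fell between HRG and BSN. Syt17, a synaptotagmin-family protein, rose 1.89-fold from 2624 ± 371 to 4953 ± 189 (adjusted p = 0.000483) and was 1.63-fold above PTN (adjusted p = 0.00205). Esyt2, a tether between membranes, rose 1.5-fold (adjusted p = 0.0183, up to 0.0948 with BSN replicate 1, BSN replicate 3 or HRG replicate 3 left out). Esyt2 did not pass between HRG (4536 ± 526) and PTN (4739 ± 323, adjusted p = 0.784), and PTN was above BSN (adjusted p = 0.00885). The third gene that rose was Syt8, from 1064 ± 68 to 1737 ± 227 (adjusted p = 0.0239, lost in 5 alternatives). The gene that fell was Syt5 (adjusted p = 0.0493), a call lost in 13 alternatives, with an HRG mean under the 40th percentile. Without BSN replicate 1 or without HRG replicate 3 the counts were 1 higher and 0 lower.

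Tcim had signals of 1676.8, 1546.6 and 1480.6 in BSN, 7680.1, 7695.4 and 4772.3 in HRG, and 1391.8, 1438.8 and 1074.2 in PTN. HRG was 4.16-fold BSN and 5.03-fold PTN (log2 change 2.33 ± 0.19 SE for HRG minus PTN, adjusted p = 3.25e-06). Every PTN array lay below every BSN array, as on 23.8% of kept probe sets, yet PTN minus BSN, at -0.28 ± 0.19 SE, did not pass (adjusted p = 0.318).

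Of the Wnt and beta-catenin targets listed for Tcim, 8 were kept, and between HRG and BSN 2 rose and 2 fell, with a median log2 change of -0.33. Tcf7, a transcription factor of the pathway and one of its targets, fell from 5261 ± 294 to 432 ± 47.6 (adjusted p = 1.8e-08) and was at 2227 ± 332 in PTN (adjusted p = 5.88e-07 for HRG against PTN). The HRG mean of Tcf7 was under the mean 40th percentile of the HRG arrays (691), so its differences have no size. Ccnd1, the cyclin D1 gene, was 2.39-fold lower in HRG at 2661 ± 130, against 6383 ± 519 in BSN (adjusted p = 3.57e-05). Myc rose 2.73-fold from 862 ± 332 to 2292 ± 337 (adjusted p = 0.00305) and was 3.12-fold above PTN (744 ± 248, adjusted p = 0.000858). Tcf7l2, a second transcription factor of the pathway, rose 1.52-fold (adjusted p = 0.0239), which did not pass with BSN replicate 1 or 3 or any of the 3 HRG replicates left out (up to 0.0956). Lgr5, a receptor of R-spondins and a Wnt target, was at 939 ± 243 in BSN, 728 ± 180 in HRG and 2402 ± 986 in PTN, lower in HRG than in PTN (adjusted p = 0.00104) and higher in PTN than in BSN (adjusted p = 0.00674). The members of this list that moved did not move one way beside Tcim.

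**Figure D3:**
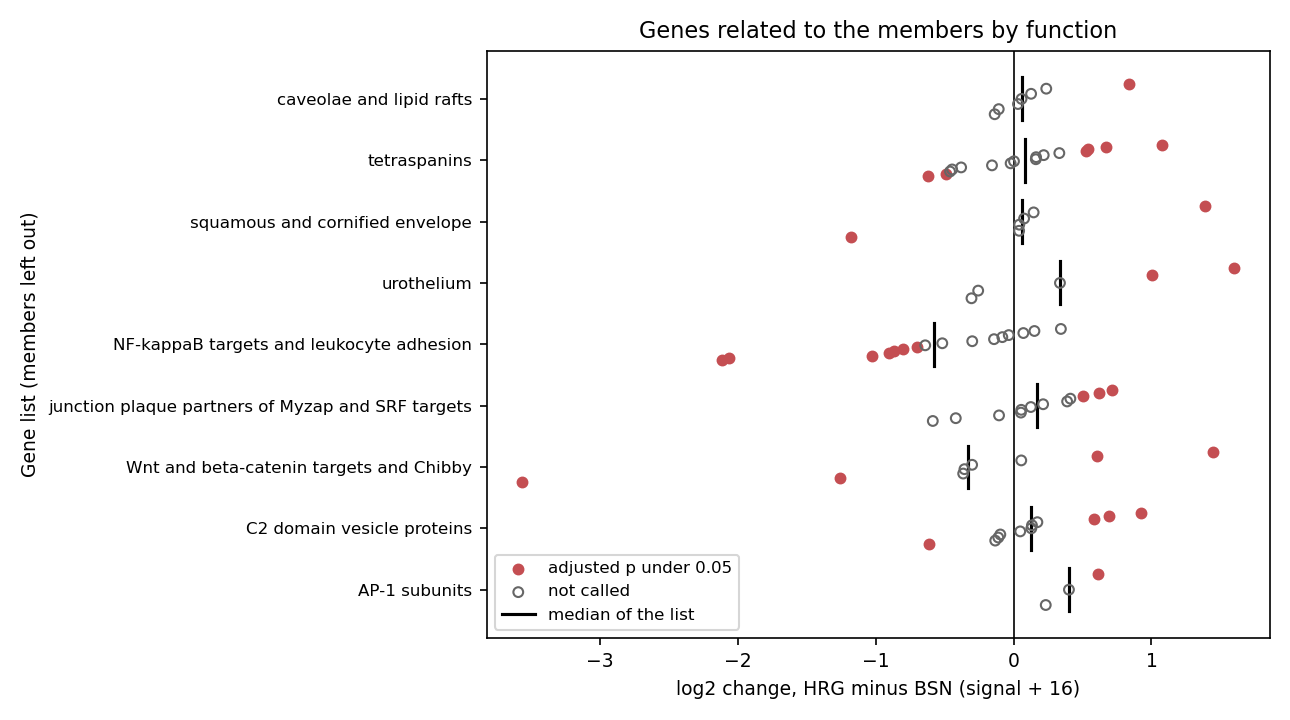
log2 change of signal plus 16, HRG minus BSN, for each kept gene of 9 lists made around the members, which are left out (filled points adjusted p under 0.05, open points not called, black bar the list median). The NF-kappaB list has all its called genes below 0 at a median of -0.58, and the other list medians lie between -0.33 and 0.40.

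Taking the 9 lists as one, 30 of 83 kept genes were called in HRG against BSN, 17 higher and 13 lower, or 36.1%, beside 15.8% of all kept probe sets. Each gene entered by its brightest probe set and the lists were made with earlier results of these arrays known, so the shares are not of like items. The count was 16 without HRG replicate 3, 17 without BSN replicate 2 and 18 without BSN replicate 3.

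In PTN against BSN 2 of the 7 genes were higher (Cav1 and Myzap), 1 was lower (Tc2n) and 4 did not pass (Sprr1a, Tspan8, Vcam1 and Tcim). Over all kept probe sets 9.15% were called higher, 13.4% lower and 22.5% in either direction, so nothing is read from these counts. Low BSN signals were part of the choice of the genes, so the 2 higher calls may be favoured by it. The likeness of 2 genes was measured as the root mean square difference between their log2 profiles over the 9 arrays, each centred on its own mean. These distances include the step between HRG and BSN for which the genes were chosen, so nearness among them is partly fixed by the choice and is a description only. Cav1 and Myzap were the closest pair at 0.13, and Myzap was the nearest to Cav1 of 7457 other genes. Cav1 and Vcam1 followed at 0.30 and Tc2n and Tcim at 0.31, and Tc2n had rank 9 among the genes nearest to Tcim. Within the groups, HRG replicate 3 was the lowest HRG array for 5 of the 7 probe sets and PTN replicate 1 the lowest PTN array for 5 of 7.

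**Figure D4:**
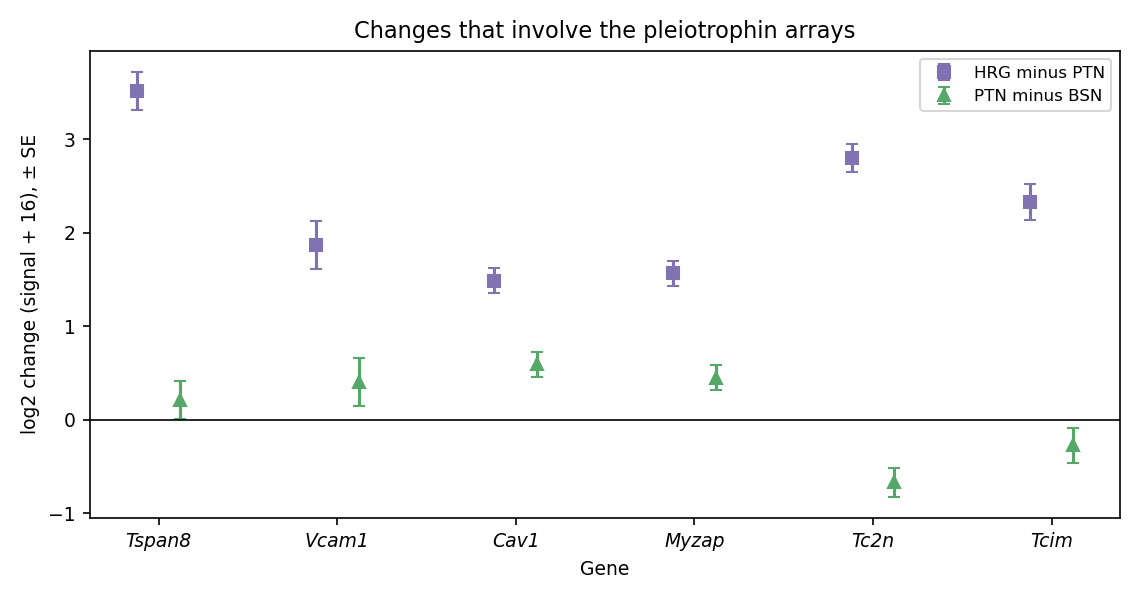
log2 change of signal plus 16 with its standard error for HRG minus PTN (squares) and PTN minus BSN (triangles) of 6 kept members, from 3 arrays per medium; Sprr1a is left out because its PTN and BSN means were under the 40th percentile. HRG minus PTN runs from 1.49 for Cav1 to 3.51 for Tspan8, and PTN minus BSN lies between -0.67 for Tc2n and 0.59 for Cav1.

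The 10 named genes nearest to the mean profile of the 7 members, by the same measure over 9 arrays and 7458 genes, were Lgals4, Plet1, G0s2, Mal, Il17re, C13h1orf116, Krt19, Akap12, Lurap1l and Lpl, at distances of 0.25 to 0.42. All 10 were also the nearest after quantile normalization and after median centring. Sprr1a itself lay far from that mean, with rank 1582 at a distance of 1.19, and the other kept members had ranks 6 to 22. Lgals4, encoding galectin 4, a lectin of intestinal epithelium, was at 457 ± 63.7 in BSN, 2527 ± 482 in HRG and 474 ± 69 in PTN. Plet1, a surface protein of epithelial progenitors, was at 629 ± 157, 4898 ± 1073 and 826 ± 136. Mal, a raft protein of apical transport, was at 550.1 ± 90.6, 3118 ± 189 and 743 ± 156. Akap12, a scaffold for protein kinase A, was at 816 ± 74.6, 8688 ± 829 and 759 ± 160. The BSN means of Lgals4, Plet1, G0s2, Mal and Lpl were under the mean 40th percentile of the BSN arrays (750). The PTN means of Lgals4, G0s2 and Lpl were under that of the PTN arrays (632), and their HRG arrays met the filter by themselves. The distances of these genes depend on how low signals are treated, which neither other scaling varied. All 10 were found by their likeness, so no test is given for them.

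The nearest 2 kept genes on either side of each member, by the gene order of GRCr8, came to 28 genes that are not members. Between HRG and BSN 5 rose, 0 fell by limma's adjusted p (2 at an unadjusted p under 0.05) and 23 did not pass, beside 6.92% called higher and 15.8% called either way over all kept probe sets. The 5 are named after their values were seen, and 3 of them lay within 2 genes of a member. Ptprr and Ptprb, receptor tyrosine phosphatase genes in succession after Tspan8, went from 2701 ± 129 to 17620 ± 1963 (adjusted p = 1.35e-07) and from 419 ± 51.4 to 1307 ± 267 (adjusted p = 0.0193). The BSN mean of Ptprb was under the mean 40th percentile of the BSN arrays (750), so its rise has no size. The HRG arrays of Ptprb met the filter on low signals by themselves, which favoured a call as higher in HRG. Lgr5, on the other side of Tspan8, did not pass between HRG and BSN (adjusted p = 0.46). Cgnl1, next to Myzap and encoding paracingulin, a junction protein, rose 2.17-fold from 2622 ± 561 to 5630 ± 190 (adjusted p = 0.000352), and Polr2m, on the other side, was at 24907 ± 368 and 29489 ± 2548 (adjusted p = 0.221). S100a6 and S100a4, calcium-binding proteins, are the nearest kept genes on their side of Sprr1a but lie 26 and 28 genes away. They rose from 2138 ± 575 to 7677 ± 1182 (adjusted p = 2.78e-05) and from 1014 ± 450 to 1935 ± 215 (adjusted p = 0.0183). The Ptprb call was lost without any 1 of BSN replicates 1 and 3 and HRG replicates 1 and 3 (up to 0.0847), and the S100a4 call without BSN replicates 2 or 3 or HRG replicates 1 or 2 (up to 0.0691). None of the kept neighbours of Vcam1, Cav1, Cav2, Tc2n or Tcim that are not members passed.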

How the data were processed

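Signals came from 9 rat arrays of RNA amplified by a double in vitro transcription, per the labels' protocols. The deposited values are signal intensities on a linear scale from GCOS, per the submitters' processing notes, and no source read here gives its version. Their mean, trimmed by 2% at each end, was 2500.48 to 2500.58 on every array, so no scaling was added. Pearson's r of log2 signals was 0.959 to 0.978 within groups and 0.941 to 0.963 between them. The number of arrays limits precision.

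Of 15923 probe sets 57 controls were set aside, and 10106 that exceeded the 40th percentile of 3 or more arrays were kept. No detection calls were used. Symbols came from the platform's table: 12783 probe sets had 1 symbol, 312 several and 2771 none, and matching to a RefSeq gene table by Entrez ID changed none. Signals plus 16 were taken to log2, and folds are on that scale. limma 3.58.1 in R 4.3.3 (lmFit, contrasts.fit, eBayes with an intensity trend) fitted all 9 arrays at once, with Benjamini-Hochberg adjusted p over kept probe sets and a threshold of 0.05. Genes with a group mean under the 40th percentile get no fold.

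Members, lists and tests were chosen with earlier results of these data known. The lists' 2 highest and 2 lowest called genes in HRG against BSN and against PTN, and the 10 genes nearest the members, were named by rule. On simulated data for HRG minus PTN, planted log2 changes of 0.5, 1 and 2 were recovered for 10%, 88% and 100% of 50 probe sets each. Of 9906 unchanged ones 15 were called. Far fewer probe sets were changed there than the 2603 called in HRG against PTN, which makes the adjusted p stricter. The share missed in these data is therefore not given by it. Changes near 0.5 can be missed, and some passed. Deviations of same-numbered HRG and PTN arrays correlated above 0.1 in all 3 pairs (r 0.118 to 0.332), the condition for treating the numbers as pairs, which rests on the data and not the design. It was not met for HRG and BSN (r -0.0551 to 0.13) or PTN and BSN (r -0.0970 to -0.0112). The fit with the replicate block is an alternative. Figures used matplotlib 3.10.9 in Python 3.11.15.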

Additional observations from a re-analysis of the deposited data

How the results depend on the processing

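Of 18 alternatives (quantile normalization, median centring, pseudocounts of 1 and 64, no filter, a 60th percentile filter, no intensity trend, only the 2 groups compared, the replicate block, and each of 9 arrays left out), none changed the sign of any difference of the 7 kept members, and all 18 called all 7 kept members higher in HRG than in PTN. All 18 used HRG arrays that took part in the choice of the genes, so they cannot show how far that choice favoured these calls. With the replicate block 2690 probe sets passed in HRG against PTN, 1641 in HRG against BSN and 2362 in PTN against BSN, beside 2603, 1594 and 2276 without it, and no member's call changed. Among the lists that block moved the caveola count in HRG against PTN from 1 to 4 higher and the tetraspanins from 2 higher and 2 lower to 3 and 1, and in HRG against BSN it ended the calls for Atf3 (0.0543) and Syt5 (0.0685). Members called higher in PTN than in BSN numbered 2, or 1 when only the 2 groups compared were fitted and 1 to 3 with 1 array left out. The 1 called lower became 0 with median centring. With 1 array left out, 1053 to 2225 probe sets passed in HRG against BSN, the lowest without HRG replicate 3, and 1358 to 3222 in PTN against BSN, the lowest without BSN replicate 3. List genes called in HRG against BSN numbered 30, 18 with the 60th percentile filter, where fewer genes were tested, and 16 to 31 with 1 array left out. Of 58 calls of list and neighbour genes 31 held in every alternative that tested them and 27 were lost in at least 1. Where no cause is given it was not tested. Higher calls in HRG against PTN numbered 1423, or 943 with median centring, and in PTN against BSN 925, or 1598 with median centring.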
